A study of Homo sapiens with 4 samples.

Results

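The neuronal RNA-binding and splicing genes ELAVL2, ELAVL3, ELAVL4, CELF3, CELF4, CELF5, NOVA2, RBFOX3, SRRM3 and SRRM4 were examined for binding of NRSF/REST in adrenocortical tumour cells. They are 10 of the 20175 protein-coding genes in the annotation used, and were chosen by name from 5 families, with earlier results of these data known. Every NRSF/REST site lying in one of these genes or within 10 kb of it was taken, which gave 24 of the 5323 sites in the basal list and 26 of the 5059 sites in the list for the increased SF-1 dosage. The cells were H295R/TR SF-1, a subclone of the human adrenocortical carcinoma line H295R that makes additional SF-1, a nuclear receptor of steroid-producing tissue, when doxycycline is given. Chromatin was immunoprecipitated with an antibody against NRSF/REST and sequenced, giving 1 library from untreated cells (basal) and 1 library from cells kept in doxycycline for 3 days (increased). The labels also list 2 input DNA libraries, which were not analysed here. Because both libraries came from 1 subclone, and doxycycline was given only with the additional SF-1, the effects of the drug and of SF-1 cannot be told apart.

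The lists give each site by its start, its end, an order number and a score. The score was 1000 at every site and ranks nothing. The order number is the place of the site in its list, and its basis is not given in the sources used here. Read counts were not given, so the depth is unknown and no site has a measured height. Site boundaries fell on steps of 50 bp. With 1 library per dosage there was no replicate check, and no test was made anywhere below. The intervals given are exact 95% Clopper-Pearson intervals and cover counting error over sites only. Sites of 1 gene are not independent of each other. The lists hold binding sites and no RNA levels, so the identity of the cells could not be checked against marker genes and nothing below measures expression.

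NRSF/REST is a zinc-finger repressor that keeps neuronal genes silent in non-neuronal cells by binding RE1 elements and recruiting histone-modifying corepressors. The genes examined act on RNA in neurons. The ELAVL (Hu) proteins bind AU-rich and U-rich RNA and stabilise or alter the splicing of neuronal transcripts, CELF proteins regulate splicing and translation, NOVA2 binds clusters of YCAY in pre-mRNA, RBFOX3 is the neuronal nuclear antigen NeuN and binds UGCAUG, and SRRM3 and SRRM4 promote inclusion of neural microexons. SRRM4 is also known to redirect splicing of REST itself to the truncated REST4 form, and REST in turn represses SRRM4.

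The RE1 consensus was searched on both strands as CAGCACC, then 2 bases of any kind, then GGACAG, allowing up to 2 mismatches in these 13 fixed bases. Sites of both dosages lying within 500 bp of each other at a gene were merged into regions, which gave 21 regions, 14 of them with a match. The best match of 13 of these 14 regions is shown with 2 bases before it and 4 after it, because the matches are what the regions have in common and they show which bases vary. Capitals mark the 13 fixed positions. All are read 5′ to 3′ on the strand of the match from hg19.
ELAVL2, upstream, chr9:23829770-23829790, + strand: atTAGCACCatGGACAGagac
ELAVL2, intron 1, chr9:23824954-23824974, + strand: cgTAGGACCaaGGACAGggct
ELAVL3, upstream, chr19:11592780-11592800, + strand: ttCAGCACCacAGACAGcaat
CELF3, upstream, chr1:151689576-151689596, - strand: tcCAGCACCggGGACAGctcc
CELF4, intron 2, chr18:35063722-35063742, + strand: atCAGCACCacGGACAGtgat
CELF4, intron 8, chr18:34850202-34850222, - strand: atCAGCACCatGGACAGgtca
NOVA2, intron 3, chr19:46455989-46456009, + strand: ttCAGCACCaaGGACAGcgtc
RBFOX3, intron 1, chr17:77334425-77334445, - strand: ggCAGCACCacGGAGAGctac
RBFOX3, intron 2, chr17:77290738-77290758, + strand: ttCAGCACCacGGACAGcgac
RBFOX3, intron 3, chr17:77188758-77188778, + strand: gtCAGCACCagGGACAGctcc
SRRM3, intron 1, chr7:75854868-75854888, - strand: tcCAGCACCacGGACAGcacc
SRRM4, exon 1 (5′ UTR), chr12:119419638-119419658, + strand: ttCAGCACTttGGACAGcgcc
SRRM4, intron 1, chr12:119499206-119499226, + strand: ttCAGCACCagGGACAGcgac

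Of the 14 best matches, 9 carried all fixed bases, 4 had 1 mismatch and 1 had 2. A substitution gives the consensus base, its position and the base found, where position 1 is the C that opens the consensus and the free bases are counted. The ELAVL2 upstream match carried C1T, the ELAVL2 intronic match C1T and C4G, the ELAVL3 match G10A, the RBFOX3 match in intron 1 C13G, and the SRRM4 match in exon 1 C7T. The bases A2, G3, A5 and C6 of the first part were the same in all 14 matches. The first free base was A in 12 of 14, whereas A stood there in 53.6% of the 2164 best matches over all basal sites. In the increased list it was A in 11 of 14, against 52.9% of 2129. The lists differ here at ELAVL2 intron 1, where 2 matches tied at 2 mismatches. The match nearer the middle of the site was taken, and in the increased site this was another one, with C there. The matches at these genes and over all sites differ in match quality, as 9 of the 14 and 594 of the 2164 had no mismatch. The first free base was 1 of several positions counted, so its share is a description only. In the basal list A stood at position 18 in 42.9% of the matches at these genes, against 14.4%. T stood just before position 1 in 71.4%, against 68.3%. Of the 14 matches, 6 lay on the strand of the gene and 8 on the opposite strand.

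Likeness between matches was counted within and between gene families. Over the 91 pairs of matches, 12 to 20 of the 21 bases were identical, with a median of 16. The 9 pairs from different genes of 1 family had a median of 15, and the 76 pairs from different families a median of 16. The matches in RBFOX3 intron 2 and SRRM4 intron 1 had 20 identical bases. All pairs share most of their fixed bases through the search itself. The counts take in all 21 bases, so mismatches at fixed positions lower them along with differences in the flanks and free bases.

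A site lay at 9 of the 10 genes in each list, and these were the same 9 genes. ELAVL4 had none at either. Over all protein-coding genes the share with a site was 13.9% (basal), 13.6% (increased) and 10.5% (both dosages). More than 1 site lay at 7 of the 10 genes at each dosage, against 3.21% (basal) and 3.06% (increased) of all protein-coding genes. Shares are also given by gene length, since a longer gene spans more sequence. The median length of the 10 genes was 111 kb, and 5 of them were over 100 kb. Whether length accounts for the share at the 10 genes was not tested. Among protein-coding genes over 100 kb, 31.2% and 30.6% had a site at the basal and increased dosages, and 4 of the 5 long genes examined (ELAVL2, CELF4, RBFOX3 and SRRM4, not ELAVL4) did. The same 4 genes had more than 1 site at each dosage, against 11.0% (basal) and 10.2% (increased) of genes over 100 kb. Among genes of 20 to 100 kb the shares were 11.7% and 11.3%, and ELAVL3, CELF5, NOVA2 and SRRM3 all had a site. CELF3 had sites in the class under 20 kb, where 8.56% and 8.37% of genes did.

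**Figure D1:**
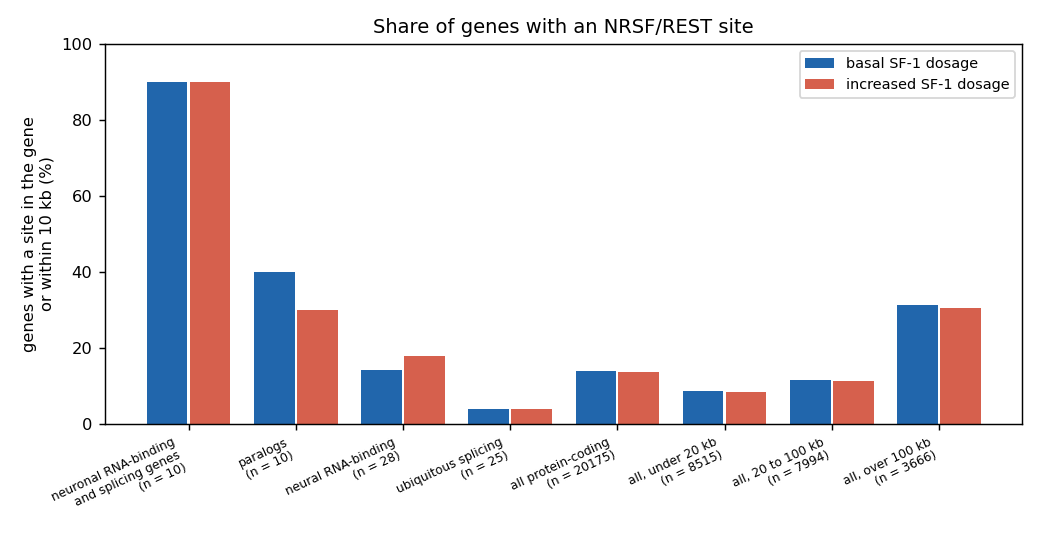
Bars give the percent of genes with an NRSF/REST site in the gene or within 10 kb at the basal (blue) and increased (red) SF-1 dosage, for the 10 neuronal RNA-binding and splicing genes, 3 comparison lists and all protein-coding genes by length. The 10 genes stood at 90% at each dosage and protein-coding genes over 100 kb at 31.2% and 30.6%.

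Positions below are in hg19 and distances are from the start of the canonical transcript to the middle of the site, with negative values upstream. Each region was placed by the centre of its best match, or by its own middle where it had no match within 2 mismatches. Of the 21 regions, 17 were so placed in introns and 3 upstream of the gene, and the remaining region, at SRRM4, had its match in the 5′ UTR. The regions at the starts of SRRM3 and CELF4, placed in intron 1, also reach over exon 1 and the gene start.

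**Figure D2:**
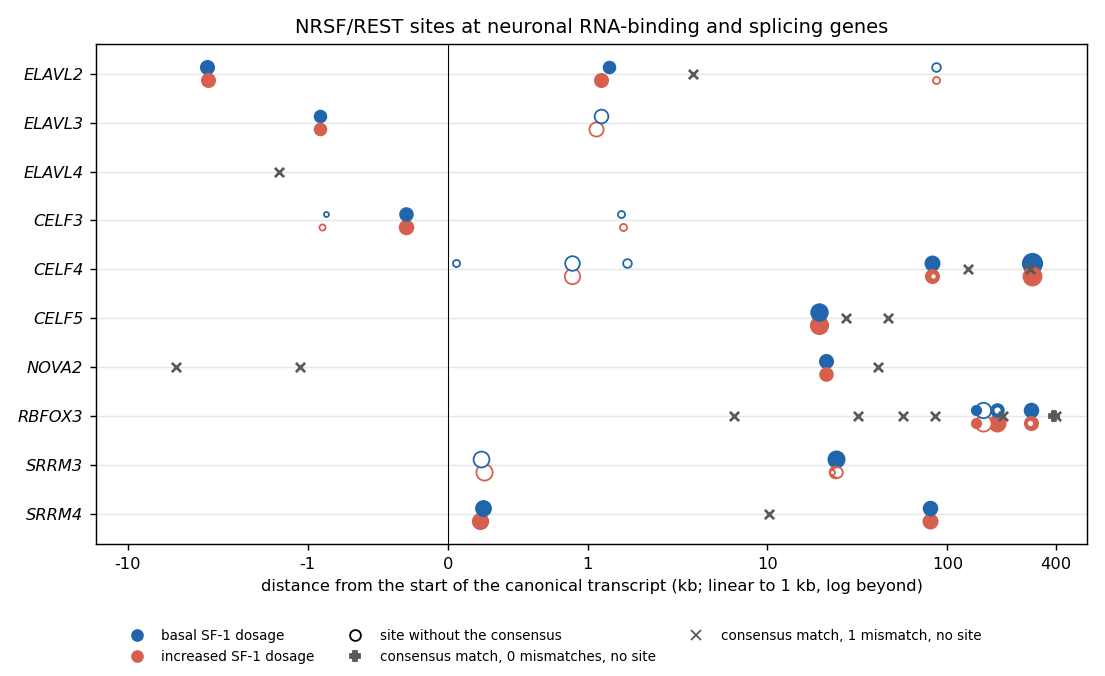
Each circle is an NRSF/REST site at the basal (blue) or increased (red) SF-1 dosage, placed by the distance of its middle from the start of the canonical transcript in kb (axis linear to 1 kb, logarithmic beyond), with area proportional to width and filled where it holds the consensus with up to 2 mismatches. Grey crosses and the grey plus are consensus matches with 1 and 0 mismatches outside any site, and ELAVL4 has 1 such match and no circle.

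Among the ELAVL genes, ELAVL2 (chr9:23690102-23826335, - strand) had 3 sites at each dosage. The site upstream of the gene, chr9:23829501-23830199, was 699 bp wide with its middle at -3612 bp at the basal dosage. It was again 699 bp wide, at -3562 bp, at the increased dosage, and held the match with C1T. The site in intron 1, chr9:23824651-23825199, was 549 bp wide at the basal dosage and 699 bp (chr9:23824701-23825399) at the increased dosage. Besides the match shown above it held another with 2 mismatches (A5G and G11C):
ELAVL2, intron 1, further match, chr9:23824987-23825007, + strand: ccCAGCGCCcaGCACAGcgag
The third ELAVL2 site, in intron 2, was narrow, at 299 bp (chr9:23739701-23739999) and 199 bp, stood late in both lists at order numbers 3276 and 3453, and had no match.

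ELAVL3 (chr19:11562141-11591861, - strand) had a site on either side of its start. The upstream site, chr19:11592501-11593049, had the same boundaries at both dosages, 549 bp wide with its middle at -914 bp, and held the match with G10A. The site in intron 1, chr19:11590301-11591049, was 749 bp wide at the basal and 799 bp at the increased dosage and had no match within 2 mismatches, with the nearest at 3. Its GC content of 77.6% (basal) was the highest of the sites at these genes, against a median of 45.5% over all basal sites.

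ELAVL4 (chr1:50489701-50669444, + strand) was the gene without a site, and since the depth is unknown this does not show that NRSF/REST was absent there. The nearest site was 54.2 kb beyond its end at both dosages, chr1:50723651-50723899 (249 bp) at the basal dosage and 199 bp wide at the increased dosage. It lay in the noncoding locus LINC02808 and had 4 mismatches at best. In the gene and 10 kb to either side the genome held 1 match with at most 1 mismatch, carrying C6T, and it was in no site:
ELAVL4, not in a site, chr1:50573147-50573167, + strand: aaCAGCATCttGGACAGaata

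All 3 CELF genes examined had a site that held the consensus without mismatch. CELF3 (chr1:151672534-151689279, - strand) had 3 sites at each dosage, all within 2 kb of its start. The site over its upstream edge, chr1:151689251-151689899, was 649 bp wide at order number 232 (basal) and 749 bp at order number 174 (increased), with its middle at -296 bp at both. A narrow companion at chr1:151690101-151690199 was 99 bp wide at the basal and 149 bp at the increased dosage, and a site in intron 1 at chr1:151687651-151687849 was 199 bp wide at each. Neither companion had a match. The annotated gene RIIAD1 overlaps this stretch, so the sites cannot be assigned to CELF3 alone.

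CELF4 (chr18:34823003-35145790, - strand) had the widest site at these genes. The site in intron 8, chr18:34849601-34851099, was 1499 bp wide at order number 32 of the basal list, wider than or as wide as 99.5% of basal sites, and 1299 bp at order number 33 of the increased list. It lay 295411 bp into the canonical transcript, and its match was 670 bp inside the nearest annotated transcript start. The stretch is printed in full because it held 3 matches in a row on 1 strand, 17 bp from start to start with 2 bases between neighbours, the middle one with G10A and the others without mismatch:
CELF4, intron 8, chr18:34850168-34850222, - strand: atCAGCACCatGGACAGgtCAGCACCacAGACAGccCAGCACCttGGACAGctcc
At most 1 mismatch allowed, 3 or more matches were found in 8 of 5323 basal sites (0.150%) and 8 of 5059 increased sites (0.158%), and the CELF4 site was among them at both dosages.

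The site in CELF4 intron 2, chr18:35063401-35064199, was 799 bp wide at the basal and 699 bp at the increased dosage and held a match without mismatch. A separate site of 149 bp, chr18:35063001-35063149, was listed beside it only at the increased dosage. Near the CELF4 start, a site in intron 1, chr18:35144451-35145299, was 849 bp wide at order number 272 (basal) and 949 bp at order number 291 (increased), with its middle at 886 bp at both. It had no match within 2 mismatches. Both parts of the consensus were present without mismatch in this site, 8 bases apart rather than 2:
CELF4, intron 1, chr18:35144898-35144924, + strand: ttCAGCACCacggcgatGGACAGcacc
Parts 8 bases apart without mismatch were present in 74 of 5323 basal sites (1.39%) and 1 of 10646 windows of the same widths 10 kb to either side, and in 68 of 5059 increased sites (1.34%) and 2 of 10118 windows.
On either side of it the basal list alone had a narrow site, 299 bp at chr18:35143951-35144249 and 199 bp at chr18:35145601-35145799 in the 5′ UTR of exon 1.

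CELF5 (chr19:3224659-3297074, + strand) had 1 site at each dosage, in intron 1 with its middle at 19341 bp. It was 1099 bp wide at order number 340 in the basal list (chr19:3243451-3244549) and 1199 bp wide at order number 423 in the increased list. NOVA2 (chr19:46436992-46477302, - strand) likewise had 1 site, in intron 3, 699 bp wide at order number 1242 (chr19:46455701-46456399, basal) and 649 bp wide at order number 1298 (increased). Both held the consensus without mismatch.

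RBFOX3 (chr17:77085427-77512230, - strand), the longest of the 10 genes, had 5 sites at the basal and 6 at the increased dosage, in 4 regions of introns 1 to 3. The site in intron 3, chr17:77188301-77189049, was 749 bp wide at the basal and 699 bp at the increased dosage, where a 199 bp site was listed on either side of it. In intron 2 the basal list had a site of 249 bp and one of 649 bp (chr17:77290451-77291099, order number 144), and the increased list had a single site of 1049 bp over both (chr17:77290051-77291099, order number 142). The sites in introns 2 and 3 each held a match without mismatch. The first of the sites in intron 1, chr17:77334301-77334649, was 349 bp wide with the same boundaries at both dosages and held the match with C13G. The other, chr17:77321451-77322399, was 949 bp wide at the basal and 1049 bp at the increased dosage, and had no match nearer than 4 mismatches. In it both parts of the consensus adjoined with no base between them:
RBFOX3, intron 1, parts adjoining, chr17:77321978-77321996, - strand: ttCAGCACCGGACAGctcc
This adjoining form without mismatch was present in 4 of 5323 basal sites and 4 of 5059 increased sites, and in 0 of 10646 and 0 of 10118 windows of the same widths 10 kb to either side of the sites. The distances of 0, 7 and 8 bases, and the mismatches allowed with each, were singled out after the values at these genes were seen, so the shares given for them are descriptions only.

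RBFOX3 also held the only match without mismatch at these genes that was in no site, in the 3′ UTR (exon 14) at the far end of the gene. It is printed because its 13 fixed bases are the same as those of the matches in sites:
RBFOX3, not in a site, chr17:77085871-77085891, - strand: agCAGCACCaaGGACAGccag

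SRRM3 (chr7:75831214-75916605, + strand) had a wide site over its start. This site, chr7:75830951-75831949, was 999 bp wide at order number 229 (basal) and 1049 bp at order number 292 (increased), and its GC content was 70.8% and 69.8%. It had no match within 2 mismatches, but held both parts 7 bases apart with 1 mismatch:
SRRM3, intron 1, chr7:75831797-75831822, - strand: gcCGGCACCtcctgctGGACAGaggc
Parts 7 bases apart with at most 1 mismatch in all were present in 1.33% of all basal sites and 0.113% of the windows beside them, and in 1.42% and 0.138% at the increased dosage. Further into intron 1, a basal site of 1049 bp (chr7:75854601-75855649, order number 485) held the consensus without mismatch. The increased list had 2 sites in its place, of 549 bp (chr7:75854601-75855149, order number 437), which held the match, and 449 bp (chr7:75855251-75855699, order number 3441). A site of 99 bp at chr7:75853951-75854049, listed only at the increased dosage, made the single region of the 21 that was absent at 1 of the dosages.

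SRRM4 (chr12:119419346-119600856, + strand) had 2 sites at each dosage, both with a match and both early in the lists. The site over the start, chr12:119419151-119420049, was 899 bp wide at order number 197 (basal) and 949 bp at order number 184 (increased), with the match carrying C7T at 301 bp, in the 5′ UTR. The site in intron 1, chr12:119498751-119499499, was 749 bp wide at order number 148 (basal) and 799 bp at order number 180 (increased), with its match without mismatch at 79869 bp.

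**Figure D3:**
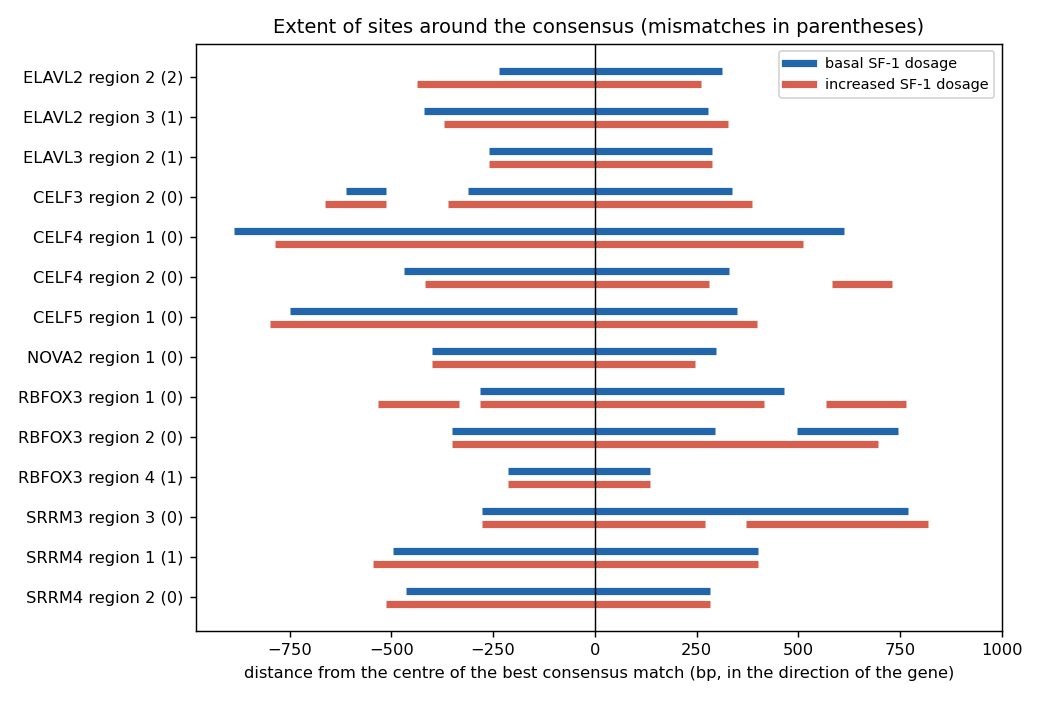
Horizontal bars show the extent in bp, in the direction of the gene, of the NRSF/REST sites of each region with the consensus at the basal (blue) and increased (red) SF-1 dosage, set to the centre of the best match at 0. Every match lay inside a site at both dosages, and the separate narrow bars at CELF4 region 2 and RBFOX3 region 1 were listed only at the increased dosage.

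Between dosages, 20 of the 21 regions had a site in both lists. Of the single sites, 22 of 24 at the basal dosage overlapped a site of the increased list by at least 1 bp (91.7%, 73.0 to 99.0%), against 64.5% of all basal sites. At the increased dosage 22 of 26 overlapped a basal site (84.6%, 65.1 to 95.6%), against 67.9% of all. The 2 sites found at the basal dosage alone, both at CELF4, and the 4 found at the increased dosage alone, at CELF4, RBFOX3 and SRRM3, were at most 299 bp wide and held no match. Wide sites were shared almost throughout both lists: of all basal sites of 500 to 800 bp, 99.9% were shared, and of those under 200 bp 18.5%.

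Where 1 basal site overlapped 1 increased site, the widths could be set side by side. This was so for 19 pairs at these genes, of which 10 were wider at the increased dosage, 5 narrower and 4 equal. The median difference, increased minus basal, was 50 bp, which is 1 step of the boundaries, and the range was -200 bp (CELF4 intron 8) to 150 bp (ELAVL2 intron 1). Over all 3327 such pairs, 34.5% were wider, 38.0% narrower and 27.6% equal, with a median of 0 bp. A width is not a binding strength, and without replicates differences of this size describe these libraries only.

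By their medians, sites at these genes were wide and early in the lists, which held for the sites with the consensus. Their median width was 699 bp at each dosage, with ranges of 99 to 1499 bp (basal) and 99 to 1299 bp (increased), against a median of 299 bp over all sites at each dosage. In the first 10% by order number stood 9 of 24 basal sites (37.5%) and 9 of 26 increased sites (34.6%), against 9.99% and 9.98% of all sites by construction. Those 9 came from CELF3, CELF4, CELF5, RBFOX3, SRRM3 and SRRM4 at the basal dosage. Sites at these genes with the consensus had median widths of 724 bp (basal) and 699 bp (increased), against 499 and 549 bp over all sites with it. Their median order numbers stood at 10.4% and 9.48% of the list, against 24.9% and 25.7%. Sites at these genes without it had median widths of 299 and 199 bp, with widths up to 999 and 1049 bp. Their median order numbers stood at 59.1% and 65.7%.

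**Figure D4:**
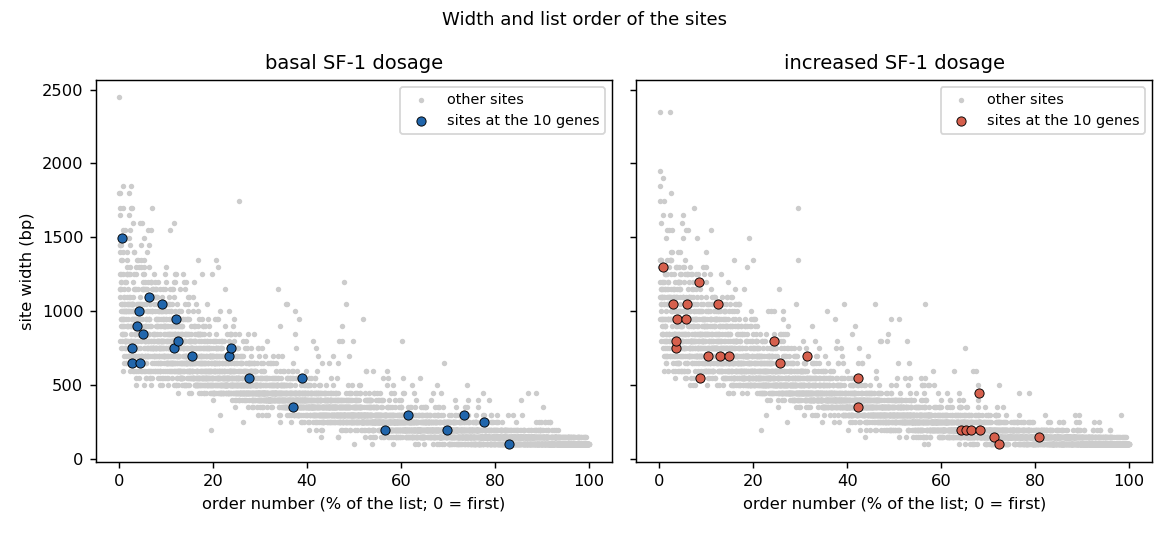
Each point is an NRSF/REST site, placed by its order number as a percent of the list (0 is first) and its width in bp, with the basal dosage on the left and the increased dosage on the right, and with sites at the 10 genes in colour and all others in grey. Sites at the 10 genes had a median width of 699 bp at each dosage against 299 bp over all sites.

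The consensus with up to 2 mismatches was held by 14 of 24 basal sites (58.3%, 36.6 to 77.9%) and 14 of 26 increased sites (53.8%, 33.4 to 73.4%), against 40.7% and 42.1% of all sites. A match without mismatch was held by 9 sites at each dosage (37.5% and 34.6%), against 11.2% and 11.8% of all sites. In control windows as wide as each site and 10 kb away on each side, a match was present in 2 of 48 basal windows (4.17%) and in 1.79% of the 10646 windows beside all basal sites. Wider sequence gives more room for a match, and sites with the consensus were wider in general, with a median of 499 bp over all basal sites that held it.

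Some of the widest sites at these genes lacked the consensus. Of the 7 sites of 800 bp or more, 4 held it at each dosage, against 82.5% (basal) and 81.3% (increased) of all sites of that width. The other 3 were those at the start of SRRM3, in CELF4 intron 1 and in RBFOX3 intron 1, in which both parts were present at distances of 7, 8 and 0 bases. With at most 1 mismatch in each part and up to 20 bases between them, the parts were present at another distance in 5 of the 10 basal sites at these genes that lacked the consensus (50%, 18.7 to 81.3%) and in 24.8% of all 3159 such sites. At the increased dosage this was so in 5 of 12 sites (41.7%, 15.2 to 72.3%) and in 24.1% of all 2930. Both intervals take in the share over all sites. Wider sequence gives more room for such parts too, the shares were not matched for width, and an effect of width was not tested.

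Regions near the gene starts were set beside those farther in. A region within 2 kb of the canonical start was found 8 times, at ELAVL2, ELAVL3, CELF3, CELF4, SRRM3 and SRRM4, and 4 of these 8 regions held the consensus. Of the 9 matches without mismatch, CELF3 had the one near a canonical start, and the other 8 were in introns farther in, although the intronic CELF4 matches lay 670 bp and 1808 bp inside other annotated starts. Single sites were counted by the nearest canonical start of any protein-coding gene, whether or not it was the gene of the site. Within 2 kb of such a start were 11 of 24 basal sites (45.8%, 25.6 to 67.2%) and 9 of 26 increased sites (34.6%, 17.2 to 55.7%). This compares with 21.1% and 21.2% of the 3083 and 2957 sites at all protein-coding genes.

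The genome was also searched for matches outside the sites. In the 10 genes and 10 kb to either side there were 11 consensus matches without mismatch, of which 10 were in a site at each dosage (90.9%, 58.7 to 99.8%), and the exception was the one in the RBFOX3 3′ UTR. Over the whole genome 608 of 816 such matches were in a basal site (74.5%) and 610 in an increased site (74.8%). With 1 mismatch, 5 of 21 matches at these genes were in a site (23.8%, 8.22 to 47.2%), against 12.0% and 11.9% of 8057 in the genome. The matches with 1 mismatch in no site included 6 at RBFOX3, 3 at NOVA2, 2 at CELF5 and 2 at CELF4. This count of matches was added after the other values had been seen.

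Sequences that SF-1 can bind were also looked for, as CAAGGACA, CAAGGCCA or CAAGGTCA on either strand. One was present in 6 of 24 basal sites (25%, 9.77 to 46.7%) and 6 of 26 increased sites (23.1%), against 11.4% and 11.5% of all sites. The basal interval takes in the share over all sites. It was also present in 3 of the 48 basal windows beside them (6.25%), against 6.62% of the windows beside all basal sites. Sites at these genes were wider than sites in general, which gives more room for a match, and an effect of width was not tested. In ELAVL2 intron 1 and NOVA2 the match, CAAGGACA, was part of the RE1 match printed above. There the last base of the first part, the free bases aa and the start of the second part spell it. At ELAVL3 intron 1 (CAAGGTCA), RBFOX3 intron 1 (CAAGGACA), SRRM3 intron 1 (CAAGGCCA) and SRRM4 intron 1 (CAAGGACA) it lay elsewhere in the site. All 6 were in the sites of both dosages. A match is a description of letters and does not show binding of SF-1.

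Among the 10 paralogs of these genes, 4 had a basal site (40%) and 3 an increased site (30%), 3 of them both. CELF6, another CELF family regulator, had a basal site of 1399 bp over exon 1 at order number 45 (chr15:72611301-72612699), with a match without mismatch, and at the increased dosage 2 sites of 299 and 1049 bp. RBFOX1, the neuronal and muscle paralog of RBFOX3 and a gene of 2474 kb, had 10 basal and 9 increased sites, of which 9 at each dosage held the consensus. NOVA1 had a basal site of 849 bp in its 3′ UTR (chr14:26913601-26914449) without a match. RBFOX2 had a 99 bp site at the basal dosage alone, with 6 mismatches at best. ELAVL1, which encodes the broadly expressed HuR, CELF1, CELF2, SRRM1, SRRM2 and SRRM5 had no site at either dosage.

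Another 28 RNA-binding regulators of splicing, localisation or translation had a median length of 110 kb, against 111 kb for the 10 genes. Of these 28 genes, 4 had a basal site (14.3%) and 5 an increased site (17.9%). These were PTBP3 (basal), KHDRBS1 and FMR1 (increased), and STAU1, STAU2 and IGF2BP2 (both), with sites of 99 to 349 bp, none with the consensus. At STAU1 and IGF2BP2 the basal and increased sites were at different places and did not overlap, whereas STAU2 had a shared site. Of 25 splicing factors used in all cells, 1 had a site (4%), the gene SF1, which encodes splicing factor 1 and not the nuclear receptor SF-1. Its site in intron 1, chr11:64544901-64545249, was 349 bp wide at both dosages, with 3 mismatches at best. The splicing factors are shorter genes, with a median length of 20.6 kb.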

How the data were processed

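NRSF/REST ChIP-seq libraries of H295R/TR SF-1 cells, 1 per SF-1 dosage, were used. Reads had been aligned by the authors to hg19 using ELAND, and CASAVA 1.6 is named in the submitters' processing notes. The deposited lists have a header in the format of CisGenome. Peak calling settings are stated for SF-1 sites, and for NRSF/REST sites they are not given in the sources used here. The deposited score was 1000 at every site, and the other deposited values are coordinates and order numbers, so no test was run. The labels give the doxycycline concentration in mg/mL and the methods the same figure in µg/ml.

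Starts were counted from 1. Sites were assigned to every protein-coding gene of GENCODE release 44 on hg19 (20175 of 64477 genes) that they overlapped or lay within 10 kb of. Genes of other types served only to name what overlapped a site or region. Sites sharing at least 1 bp counted as shared. Sequences were read from hg19. The work was done in Python 3.11.15 with pysam 0.24.0, scipy 1.17.1 and numpy 2.4.6, and the overlap and motif steps were tested on simulated data. Genes, lists and comparisons were chosen with earlier results of these data known. The rule for naming genes took all 10 genes with every site, and genes of the comparison lists that had a site, with absent paralogs. Promoter windows, which that rule also foresaw, were left out because the table at hand is on another build. The sequence of 1 match is not reported here. Alternatives were other distances, gene extents, overlaps, mismatches and list thresholds.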

Additional observations from a re-analysis of the deposited data

How the results depend on the processing

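Over 60 alternative values, 48 stayed within the margin set for them and 12 moved. The margin was a set factor for counts at these genes, and a confidence interval over all protein-coding genes for shares. The 24 basal sites at these genes counted as the same at 30 (within 50 kb) and at 18 (widest 50%). A basal share of 12.8% (canonical extent) counted as moved from 13.9%. The tally thus depends on the margins. A site lay at 9 of the 10 genes at each dosage under every alternative run: sites inside the gene only, within 50 kb, the widest 50% of each list, the first 50% by order number, and the extent of the canonical transcript. The share of protein-coding genes with a site at the basal and increased dosages moved to 9.90% and 9.73% inside the gene only, 25.9% and 25.3% within 50 kb, 8.34% and 7.90% in the widest 50%, 8.24% and 7.89% in the first 50% by order number, and 12.8% and 12.6% with the canonical extent, by construction since each admits fewer or more sites. With 0 mismatches allowed, 9 sites at these genes held the consensus at each dosage in place of 14, for the same reason. No paired analysis was possible because each dosage has 1 library, and for that reason no library could be left out. The unknown depth limits what the absence of a site, as at ELAVL4, can show.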
